A study of Mus musculus with 3 samples.

Results

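Chemokine receptors are the group of genes described here: Ccr2, Ccr4, Ccr6, Ccr7, Ccr8, Ccr9, Ccr10, Cxcr3, Cxcr4 and Cxcr6. These 10 genes were taken by name, with earlier results of these data known. All 10 were found among the 30406 gene identifiers that the 3 libraries share. Their transcripts were counted in single thymic cells by droplet scRNA-seq. CD8+ cells had been removed with beads, and the cells sorted were positive for TCRβ and the CD1d tetramer, to which the receptor of iNKT cells binds, and negative for CD24 and NK1.1. C57BL/6 mice without BMT, labelled as 7 weeks old, gave the first library. The other libraries came from lethally irradiated F1 (C57BL/6 × BALB/c) recipients, labelled as 16 weeks old and 9 weeks after BMT. All recipients had received T cell-depleted C57BL/6 BM, alone (BM only, labelled Non-GVHD) or together with C57BL/6 splenic cells (BM + Spl, labelled GVHD). Mice were pooled in each library and each condition has 1 library, so the spread between mice is not known and no test was run.

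Chemokine receptors are seven-helix membrane proteins that couple to inhibitory G proteins, and they steer cells along gradients of secreted chemokines. In the thymus, Ccr7, Ccr4 and Ccr9 are known for guiding thymocytes between cortex and medulla and towards the exit. Invariant NKT cells (iNKT cells) are T cells with a nearly fixed T cell receptor. They mature in the thymus into the effector subsets NKT1, NKT2 and NKT17. NKT1 cells are defined by the transcription factor T-bet and NKT2 cells by high PLZF (encoded by Zbtb16), and NKT17 cells make IL-17. Cxcr3 is a common surface marker of NKT1 cells, and Ccr6 marks T cells that can make IL-17.

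Unique molecular identifiers (UMIs) mark captured transcripts, so that copies made by PCR count once. Cells were used if more than 200 but fewer than 6000 genes were detected in them and mitochondrial UMIs made up less than 10%. C57BL/6 had 4434 such cells, BM only 5970 and BM + Spl 5557. Over the shared genes, their medians were 12073.5, 4721 and 6463 UMIs and their totals 58794317, 34799890 and 43122441. Each cell was put into 1 of 11 gates by marker genes that include no chemokine receptor. The gates were named B, pDC, Macrophage/DC, Treg, CD8, NKT17, NKT1, Mixed, NKT2, Zbtb16+Il17rb- and Other. An NKT1 cell had at least 3 of 8 NKT1 markers (Tbx21, Nkg7, Klrd1, Klrk1, Il2rb, Xcl1, Gzma and Ifng) and no UMI of Il17rb. An NKT2 cell had both Zbtb16 and Il17rb and at most 1 NKT1 marker. An NKT17 cell had at least 2 of 5 NKT17 markers, among them Il23r, Il1r1, Blk and Il17re. Cells with at least 2 NKT1 markers and Zbtb16 or Il17rb were Mixed, and a gate was read only where it held at least 50 cells. The NKT1 gate held 1077 cells in C57BL/6, 2668 in BM only and 773 in BM + Spl, the NKT2 gate 1250, 160 and 351, and the NKT17 gate 301, 310 and 84.

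The sorted cells were not all iNKT cells. Of the cells of the BMT libraries whose V beta segment could be called, 97.2% and 95.9% of the NKT2 gate carried a segment used by mouse iNKT cells, in BM only and BM + Spl. In the NKT1 gate that share was 92.4% in BM only and 44.9% in BM + Spl, and in the Treg gate it was 29.6% and 28.2%. Foxp3+ cells, CD8 cells, B cells and pDCs made up gates of 143 to 694 cells in the BMT libraries and of at most 5 cells in C57BL/6. The BMT libraries shared 43 cell barcodes, and neither shared any with C57BL/6. The C57BL/6 library had been counted with another software version and gene annotation than the other two, and V beta transcripts were found in 19.8% of its cells against 89.5% and 89.2%. Condition, library and processing therefore cannot be told apart in comparisons with C57BL/6. In pooled cells of a gate, fewer expressing cells and fewer transcripts per cell also cannot be told apart from a level alone.

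On the GRCm38 annotation, 5 of the 10 receptor genes lie on chromosome 9: Ccr4, Ccr8, Ccr9, Cxcr6 and Ccr2, in this order. Ccr7 (chr11:99144196-99155077, minus strand) and Ccr10 lie on chromosome 11, Ccr6 on 17, Cxcr4 on 1 and Cxcr3 on X. Cxcr6 lies within Fyco1 and Ccr10 within Cntnap1, each on the opposite strand of the longer gene, while Ccr9 overlaps Lztfl1 on the opposite strand. Over all cells of a library, Fyco1 was at 25.3 to 28 CPM (the unit is explained below), Cntnap1 at 5.17 to 32.2 and Lztfl1 at 46.9 to 70.5. The use of strand in the counting was not given in the sources used here, so these overlaps leave the values of Ccr10, Ccr9 and Cxcr6 uncertain.

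RefSeq promoter windows (GRCm38.p6, 250 bases before to 50 bases after a transcription start) were matched for 8 of the 10 genes and made 9 windows, since Ccr6 has 2. The 3 windows that hold the Runx letters are shown, those of Ccr6, Cxcr3 and Cxcr6. These receptors were higher in the NKT17 or the NKT1 gate below. So were Ccr8 in NKT1 and Ccr2 in NKT17 of C57BL/6 and BM only, whose windows held no Runx letters. The windows shown were picked by their letters, and a link to the levels was not tested. They are printed with TGTGGT and its reverse complement ACCACA (the core bound by Runx factors) and AGGTCA and its reverse complement TGACCT (the half-site of nuclear receptors) in capitals, each window 5′ to 3′ along the strand of its gene. Runx letters were found in 3 of the 9 windows and in 16.8% of all 32851 windows of this length. The nuclear receptor letters were found in 1 of 9 and in 16.3%.
Ccr6, chr17:8235793-8236092, plus strand: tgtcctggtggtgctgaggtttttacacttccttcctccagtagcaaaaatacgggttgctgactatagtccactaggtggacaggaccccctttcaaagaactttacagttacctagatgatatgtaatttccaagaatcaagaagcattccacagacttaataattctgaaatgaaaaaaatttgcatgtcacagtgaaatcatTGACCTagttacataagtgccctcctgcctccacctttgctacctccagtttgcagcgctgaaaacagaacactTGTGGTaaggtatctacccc
Cxcr3, chrX:101734098-101734397, minus strand: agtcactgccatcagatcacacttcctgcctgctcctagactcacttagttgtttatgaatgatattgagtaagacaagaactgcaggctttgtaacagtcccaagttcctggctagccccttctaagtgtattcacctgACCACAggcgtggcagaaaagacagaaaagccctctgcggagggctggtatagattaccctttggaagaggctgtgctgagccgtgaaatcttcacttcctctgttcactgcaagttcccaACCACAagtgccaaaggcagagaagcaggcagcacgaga
Cxcr6, chr9:123806227-123806526, plus strand: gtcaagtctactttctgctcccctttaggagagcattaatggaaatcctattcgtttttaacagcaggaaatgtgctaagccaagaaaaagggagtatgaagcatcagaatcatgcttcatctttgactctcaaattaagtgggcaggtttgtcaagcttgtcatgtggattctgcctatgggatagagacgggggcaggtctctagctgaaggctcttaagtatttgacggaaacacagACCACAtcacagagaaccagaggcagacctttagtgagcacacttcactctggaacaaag
The Ccr6 window shown held both sets of letters, the Cxcr3 window held the Runx letters at 2 places and the Cxcr6 window at 1. AGGTGT and ACACCT, the core of T-box factors such as T-bet, were in 0 of the 9 windows and in 13.7% of all windows. CCACCC and GGGTGG, bound by KLF factors, were in 2 of the 9, those of Ccr8 and Ccr9, and in 31.5% of all windows. The windows of Ccr2, Ccr4 and Cxcr4 and the other window of Ccr6 held none of the letters searched. The 4 motifs were searched on both strands and do not overlap each other in the windows shown. A match in letters does not show that a factor binds there.

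A level in CPM is the sum of a gene's UMIs over the cells of a gate, divided by all UMIs of those cells and multiplied by 1000000. Parentheses hold 95% intervals (Poisson for levels, conditional binomial for log2 ratios, Clopper-Pearson for percentages of cells, all exact), which cover counting error only and not the spread between mice. A receptor was called past the fold when the levels compared differed by more than 1.5-fold and it had at least 50 UMIs in the 2 sums. The share of all genes tested that passed this fold is given beside the counts as the background.

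Cxcr3, the receptor of the interferon-induced chemokines Cxcl9, Cxcl10 and Cxcl11, was highest in the NKT1 gate in all 3 libraries. It was at 171 (163 to 180.2) CPM in the NKT1 gate of C57BL/6, 195 (188 to 203) in BM only and 152 (141 to 164) in BM + Spl. NKT2 cells had 27.7 (25.4 to 30.1), 11.6 (6.76 to 18.6) and 10.5 (7.53 to 14.4) CPM. The log2 ratio of NKT1 to NKT2 was 2.63 (2.49 to 2.77) in C57BL/6, 4.07 (3.39 to 4.86) in BM only and 3.85 (3.39 to 4.35) in BM + Spl, and the intervals of both gates lay far apart in each library. The Mixed gate lay between them, at 88.9, 60.2 and 41.9 CPM. Non-iNKT gates of the BMT libraries also held Cxcr3: CD8 cells were at 134 and 98.1 CPM and Foxp3+ cells at 98.9 and 113, in BM only and BM + Spl.

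**Figure D1:**
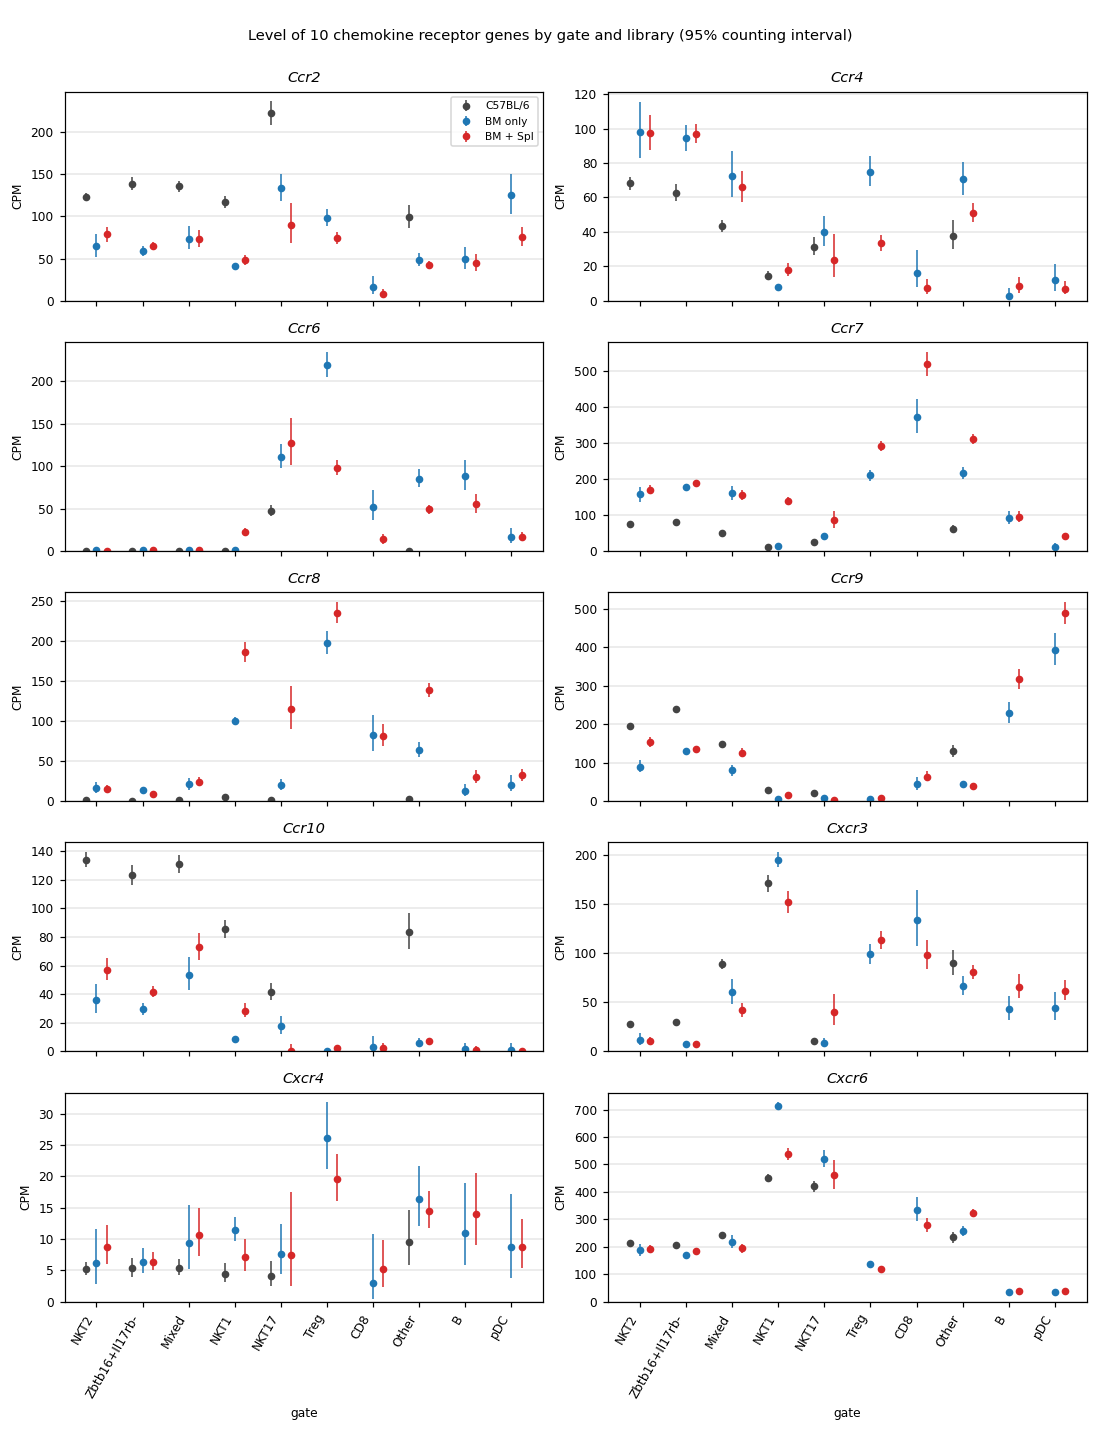
Level in CPM (y axis, a panel for each of the 10 chemokine receptor genes) by gate (x axis) in C57BL/6 (grey), BM only (blue) and BM + Spl (red), for gates with at least 50 cells other than Macrophage/DC; points are sums over cells and bars 95% Poisson intervals. Cxcr3 and Cxcr6 were highest in the NKT1 gates, Ccr6 was close to 0 in the NKT2 gates, and Ccr4, Ccr9 and Ccr10 were higher in the NKT2 than in the NKT1 gates.

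Cxcr6, the receptor of the membrane-bound chemokine Cxcl16, was at the highest level in the NKT1 gate and the next in the NKT17 gate in every library. It was at 450.2 (436 to 465), 712 (697 to 727) and 537 (517 to 558) CPM in the NKT1 gate, in the order C57BL/6, BM only and BM + Spl. The NKT17 gate was at 419.6 (401 to 439), 520.2 (489.7 to 552) and 461 (411 to 515). The intervals of these gates overlapped in C57BL/6 but not in the BMT libraries. In the NKT2 gate the level was nearly the same in the 3 libraries, at 213, 188 and 191 CPM. When each cell was thinned to 2700 UMIs, 59.8% (56.8 to 62.7), 77.5% (75.8 to 79.2) and 65.7% (62.1 to 69.2) of the cells of the NKT1 gate had a Cxcr6 UMI. The B gate, which should lack it, had a share of 4.93% and 4.76% in the BMT libraries, with median depths of 6733 and 7808 UMIs against 4365 and 4829 in NKT1. In CPM, Cxcr6 was at 33.9 and 38.4 in the B gate and 33.7 and 40.4 in pDCs. The Macrophage/DC gate was higher, at 124 and 161, so the B gate is not an upper limit for gates outside the T cells.

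Ccr8, the receptor of Ccl1 found on activated and skin-homing T cells and on regulatory T cells, followed NKT1 markers in the BMT libraries. It was at 100.1 (94.7 to 106) CPM in the NKT1 gate of BM only and 186 (174 to 199) in BM + Spl, against 16.4 and 15.3 in the NKT2 gate. In C57BL/6 it was low in every gate, with 4.8 (3.44 to 6.51) CPM in the NKT1 gate and 1.26 (0.814 to 1.86) in the NKT2 gate. Foxp3+ cells had the highest level, at 198 (184 to 212) CPM in BM only and 236 (223 to 249) in BM + Spl. The NKT1 gate stood next to them in both libraries.

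Ccr4, Ccr7, Ccr9 and Ccr10 lay on the NKT2 side. Ccr4, the receptor of Ccl17 and Ccl22, was at 68.2, 98.2 and 97.3 CPM in the NKT2 gate of C57BL/6, BM only and BM + Spl. It was at 14.3, 7.86 and 17.9 in the NKT1 gate, which gave NKT1 to NKT2 log2 ratios of -2.26 (-2.53 to -1.99), -3.64 (-4.03 to -3.27) and -2.45 (-2.80 to -2.10). The Zbtb16+Il17rb- gate, cells with Zbtb16 but no Il17rb UMI and at most 1 NKT1 marker, differed little from NKT2, at 62.7, 94.3 and 96.9 CPM, with overlapping intervals in each library.

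Ccr9, the receptor of the thymic chemokine Ccl25, was at 195 (189 to 201), 90.1 (75.3 to 107) and 154 (141 to 167) CPM in the NKT2 gate of the 3 libraries. The NKT1 gate had 30.2 (26.6 to 34.1), 5.63 (4.4 to 7.11) and 17.2 (13.7 to 21.4). It was lower still in the NKT17 gate of C57BL/6 and BM + Spl, at 20.4 and 2.99 CPM, while the NKT17 gate of BM only was at 8.63. The highest levels were outside the T cell gates: pDCs, which are known to carry this receptor, were at 394 CPM in BM only and 489 in BM + Spl, and the B gate at 229 and 317.

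Ccr10, the receptor of the epithelial chemokines Ccl27 and Ccl28, was at 134 (129 to 139), 36.2 (27.1 to 47.3) and 56.9 (49.6 to 65.1) CPM in the NKT2 gate. The NKT1 gate was at 85.5, 8.49 and 28.6. The Mixed gate was at the highest level of the BMT libraries, at 53.3 and 72.9 CPM, and in C57BL/6 it was at 131, within the interval of NKT2. In Foxp3+, CD8 and B cells and pDCs of the BMT libraries Ccr10 was at most 2.97 CPM.

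Ccr7, the receptor of Ccl19 and Ccl21 that directs T cells to the medulla and to lymph nodes, was at 76.1 (72.3 to 80.1), 157 (137 to 179) and 170.0 (157 to 184) CPM in the NKT2 gate. The NKT1 gate was at 10.2 (8.15 to 12.6) in C57BL/6 and 13.1 (11.2 to 15.3) in BM only, and at 138 (128 to 149) in BM + Spl. The NKT1 to NKT2 log2 ratio was -2.90 (-3.23 to -2.59), -3.58 (-3.88 to -3.29) and -0.30 (-0.46 to -0.14), so that in BM + Spl the gates lay within the fold of each other. CD8 cells had the highest Ccr7 level of the BMT libraries, at 372 and 518 CPM, followed by the Other gate and Foxp3+ cells.

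Counted over the set, 3 receptors were higher and 4 lower in the NKT1 than in the NKT2 gate of C57BL/6, of 9 with enough UMIs, where 24.1% of all genes tested were past 1.5-fold. In BM only 4 were higher and 5 lower of 9, against 33.3% of all genes, and in BM + Spl 4 were higher and 4 lower of 10, against 26.2%. The median log2 ratio of the receptors was -0.22, -0.65 and -0.29, and that of all genes tested 0.02, 0.00 and 0.02. Cxcr3, Cxcr6 and Ccr8 were higher and Ccr4, Ccr9 and Ccr10 lower in all 3 libraries. When only cells with an iNKT V beta segment were used, the Ccr10 difference was lost in C57BL/6, at a log2 ratio of -0.06, and in BM + Spl, at 0.046. It stayed in BM only, at -2.22. In C57BL/6 only 122 NKT1 and 277 NKT2 cells had such a call. The NKT1 gate had fewer UMIs per cell than the NKT2 gate, with medians of 6629 against 14639.5 in C57BL/6, 4365 against 8414 in BM only and 4829 against 9847 in BM + Spl.

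Ccr6 was past the fold in the NKT17 over the NKT2 gate in all 3 libraries, and Ccr2 in C57BL/6 and BM only. Ccr6, the receptor of Ccl20 on IL-17-producing T cells and B cells, was at 47.6 (41.5 to 54.4) CPM in the NKT17 gate of C57BL/6, from 219 UMIs, and the 1250 NKT2 cells of that library held 0. The log2 ratio computed with 3 counts in place of 0 was at least 8.30. In BM only Ccr6 was at 111 CPM in NKT17 and 0.682 in NKT2 (log2 ratio 7.35, 4.86 to 12.66), and in BM + Spl at 127 and 0.527 (7.91, 6.02 to 10.98). After thinning, 11.6% (8.23 to 15.8), 24.1% (19.3 to 29.4) and 29.3% (19.7 to 40.4) of NKT17 cells had a Ccr6 UMI, so most cells of the gate had none at this depth. NKT17 was not the only gate with Ccr6 in the BMT libraries: Foxp3+ cells were at 219 and 98.2 CPM and the B gate at 88.2 and 55.1.

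Ccr2, the receptor of Ccl2 on monocytes and on tissue-homing T cells, was at 222 (209 to 236), 133 (118 to 149.9) and 89.7 (68.5 to 115) CPM in the NKT17 gate and at 122, 64.8 and 78.6 in the NKT2 gate. The log2 ratio was 0.86 in C57BL/6, 1.04 in BM only and 0.19 (-0.23 to 0.60) in BM + Spl, the last within the fold and with an interval that holds 0. Ccr2 was not particular to the NKT17 gate in the BMT libraries. In BM only the Macrophage/DC gate was at 131 (106 to 160.2) CPM, pDCs at 125 (103 to 150.1) and Foxp3+ cells at 98.1 (88.4 to 109), and in BM + Spl the Macrophage/DC gate was at 118 (94 to 147), above NKT17 but with overlapping intervals. Of all receptors, 3 were higher and 5 lower in NKT17 than in NKT2 of C57BL/6 among 9 tested (17.2% of all genes past the fold), 3 and 4 of 8 in BM only (23.8%), and 4 and 4 of 9 in BM + Spl (26.6%). Ccr6 and Cxcr6 were higher and Ccr4, Ccr7, Ccr9 and Ccr10 lower in each library. Ccr10 had 0 UMIs in the 84 NKT17 cells of BM + Spl, so its log2 ratio there was -3.67 or lower, computed with 3 counts in place of 0.

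Cxcr3 took opposite directions in NKT17 cells of different libraries. Against NKT2 it was lower in C57BL/6, at 10.2 (7.51 to 13.6) CPM (log2 ratio -1.44, -1.90 to -1.01), and higher in BM + Spl, at 40.4 (26.6 to 58.7) CPM (1.94, 1.18 to 2.68). Of the NKT17 gate, 75.5% of cells with a V beta call in BM only and 59.7% in BM + Spl carried an iNKT segment. In BM + Spl these calls left 46 NKT17 cells with an iNKT segment and 31 with another, fewer than the 50 cells a group needed, so the receptors of this gate were not read by V beta there.

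Cxcr4, the receptor of Cxcl12 that early thymocytes use in the cortex, was low in every gate, at 4.13 to 9.58 CPM in C57BL/6, 2.97 to 26.1 in BM only and 5.17 to 19.5 in BM + Spl. Its NKT1 to NKT2 log2 ratio was -0.22 (-0.80 to 0.33), 0.90 (-0.07 to 2.05) and -0.28 (-1.02 to 0.45), and each of these intervals held 0, although the ratio of BM only was past the fold and is in the count above.

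At a level of 50 CPM or more, the NKT1 gate had 4, 3 and 4 receptors in C57BL/6, BM only and BM + Spl, the NKT2 gate 6, 5 and 6, and the NKT17 gate 2, 3 and 5. Ccr2, Ccr4, Ccr7, Ccr9 and Cxcr6 were at that level in all 3 NKT2 gates. The share of all genes at 50 CPM or more is not given here, so these counts describe the receptors alone and are not read as a difference between gates. In the Zbtb16+Il17rb- gate 0 of 8, 1 of 9 and 1 of 9 receptors differed from NKT2 by more than 1.5-fold, beside 3.31%, 9.27% and 4.44% of all genes.

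The receptors moved in steps with the number of NKT1 markers in a cell. Markers were counted after thinning in T cells outside the NKT17 gate, and the levels came from all UMIs of those cells. With 0, 1, 2, 3, 4 or at least 5 markers, Cxcr3 in C57BL/6 was at 32.2, 74.2, 153, 186, 179 and 184 CPM. From 0 to at least 5 markers it went from 12.7 to 188 CPM in BM only and from 15.7 to 178 in BM + Spl. Cxcr6 went from 211 to 588, 186 to 738 and 197 to 855 CPM. Cxcr3 reached its plateau at 3 markers while Cxcr6 kept its highest level for the cells with most markers in C57BL/6 and BM + Spl, and Ccr4 and Ccr9 went the other way. Ccr4 went from 63.5 to 4.91, 89.3 to 2.82 and 86.5 to 6.42 CPM. Ccr9 went from 197 to 7.01, 105 to 2.64 and 118 to 3.21 CPM.

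Ccr7 went down with the markers in C57BL/6 and BM only and not in BM + Spl. The steps were 74.4, 60.6, 26, 6.8, 1.03 and 5.61 CPM in C57BL/6. In BM only they were 184, 182, 71.8, 15.7, 6.35 and 4.58. In BM + Spl they were 198, 219, 182, 117, 147 and 156, so that cells with at least 5 markers in BM + Spl stood at 156 (126 to 189.8) CPM where those of BM only stood at 4.58 (2.99 to 6.71).

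Il17rb, the IL-25 receptor chain used to mark NKT2 cells, and Cxcr3 were detected together in a small share of cells at this depth. In thinned T cells, both had a UMI in 2.05% (1.65 to 2.51) of cells in C57BL/6, 0.148% (0.0545 to 0.323) in BM only and 0.281% (0.135 to 0.516) in BM + Spl. Il17rb alone was found in 14.2%, 2.15% and 4.58% of cells, and Cxcr3 alone in 16.7%, 25.5% and 13.5%. The share with both was 0.954% and 4.05% in C57BL/6 when cells were thinned to 1500 and 4000 UMIs, so it moves with depth. It was not set against the product of the single shares, so it does not show that these genes avoid each other. A pair of receptors, chosen after its values were seen, seldom met within the NKT1 gate of BM + Spl. Of 715 thinned cells, 71 had Ccr2 and 122 had Ccr7, and 3 had both, which is 0.248 times the product of the shares. Ccr2 and Ccr8 were found together in 6 of these cells, 236 of which had Ccr8, which is 0.256 times the product.

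BM + Spl was next compared with BM only gate by gate, which is the study's comparison with and without GvHD. In the NKT1 gate 6 of the 10 receptors were higher and 1 lower in BM + Spl, where 12.3% of all genes tested were higher and 10.1% lower by this fold. In the NKT2 gate 2 of 8 were higher and 0 lower, where 4.56% of all genes were higher. The median log2 ratio of the receptors was 1.04 in NKT1 and 0.07 in NKT2, and that of all genes tested was 0.04 and 0.01.

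Ccr7 in NKT1 was at 13.1 CPM in BM only and 138 in BM + Spl, a log2 ratio of 3.40 (3.15 to 3.66). Ccr6 was at 1.11 (0.607 to 1.86) and 22.7 (18.6 to 27.4) CPM, with a log2 ratio of 4.35. Ccr10 (1.75), Ccr9 (1.61), Ccr4 (1.18) and Ccr8 (0.90) were also higher in BM + Spl on the log2 scale. Cxcr3, Cxcr6 and Cxcr4 did not share this direction. Cxcr3 had a log2 ratio of -0.36 (-0.48 to -0.24) and Cxcr6 of -0.41 (-0.47 to -0.34), both below 0 but within 1.5-fold, and Cxcr4 was lower at -0.68 (-1.26 to -0.13). When levels were taken from thinned cells, fewer receptors reached 50 UMIs and 3 were past the fold in place of 7. The log2 ratios of Ccr4 (0.46) and Cxcr4 (-0.42) were then within the fold.

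**Figure D2:**
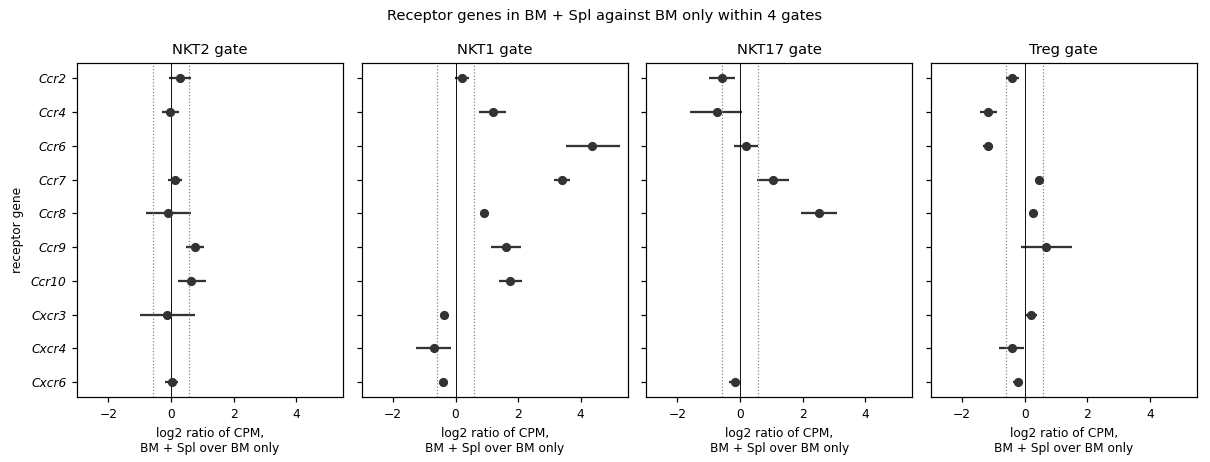
Log2 ratio of the level in BM + Spl over BM only (x axis) of each chemokine receptor, by gate, with 95% intervals for counting error; the panels are the NKT2, NKT1, NKT17 and Treg gates and the dotted lines mark 1.5-fold. In the NKT1 gate Ccr7 and Ccr6 stood furthest to the right, at 3.40 and 4.35, and in the NKT2 gate the ratios past the fold were those of Ccr9 and Ccr10, at 0.77 and 0.66.

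The NKT1 gate of BM + Spl held cells of more than 1 kind. Its share of iNKT V beta segments was 44.9% against 92.4% in BM only, so the receptors were read again within cells of known V beta. In the iNKT V beta cells of the gate, Ccr7 was at 9.34 CPM in BM only and 152 in BM + Spl. In cells with another V beta it was at 57.8 and 143 CPM.

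Splitting the iNKT V beta cells further by Zbtb16, which encodes PLZF and is expressed in developing iNKT cells, moved this difference. This split was made after the values above had been seen. Among the cells with a Zbtb16 UMI, 423 in BM only and 98 in BM + Spl, Ccr7 was at 25.9 (20 to 33.1) and 29.5 (19.6 to 42.7) CPM, and the log2 ratio of 0.19 (-0.51 to 0.85) held 0. Among cells without one, 1793 and 211, it was at 4.2 (2.91 to 5.87) and 256 (227 to 287) CPM. The difference in Ccr7 between the libraries was thus found in the cells without Zbtb16. Median UMIs were 4821 and 8687.5 in the cells with Zbtb16 and 4324 and 4361 in those without.

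The other receptors of the NKT1 gate divided along the same split. In iNKT V beta cells with Zbtb16, Ccr4 (1.91), Ccr9 (1.58) and Ccr10 (2.54) were higher in BM + Spl on the log2 scale, and Cxcr6 (-0.97) and Ccr8 (-0.63) lower, with 22.4% of all genes past the fold. In those without Zbtb16, Ccr7 and Ccr8 were higher and 2 receptors lower of 6 tested (27.9% of all genes), with Ccr8 at 99.4 CPM in BM only and 240.0 in BM + Spl. Ccr6 was at 0.124 and 42.8 CPM there, and at 0 in both libraries in the cells with Zbtb16. Cd4, the co-receptor of helper T cells, was at 26.7 CPM in BM only and 273 in BM + Spl in the cells without Zbtb16. In BM + Spl, 211 cells of the gate without Zbtb16 carried an iNKT V beta segment and 370 another. In BM only these were 1793 and 154. Whether the iNKT V beta cells without Zbtb16 are iNKT cells or other T cells with the same V beta segments was not tested.

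**Figure D3:**
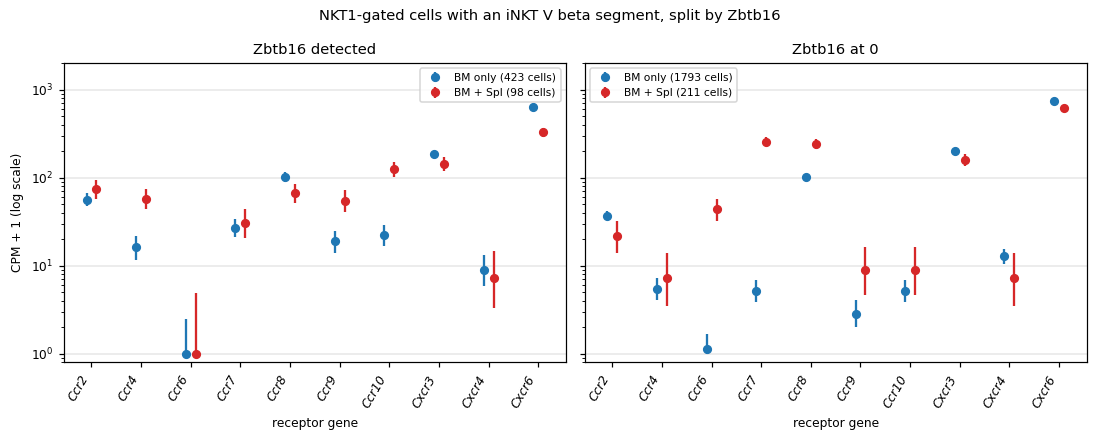
Level as CPM + 1 (log y axis) of the 10 chemokine receptor genes (x axis) in the iNKT V beta cells of the NKT1 gate, with a Zbtb16 UMI (left) and without (right), for BM only (blue) and BM + Spl (red); bars are 95% Poisson intervals. Ccr7 was at 25.9 and 29.5 CPM with Zbtb16, and at 4.2 and 256 without.

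Taking all cells of the NKT1 gate in BM + Spl, the 651 without Zbtb16 had Ccr7 at 171 CPM and Ccr8 at 224, and the 122 with Zbtb16 had 42.6 and 78.6. Ccr10 went the other way, at 2.83 CPM without and 103 with Zbtb16. In C57BL/6 and BM only the cells without Zbtb16 had less Ccr7 than those with it, at 3.18 against 16.6 CPM and 7.84 against 30.6. Ccr10 was also lower without Zbtb16 in these libraries, at 29.6 against 137 CPM and 4.54 against 21.7.

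In the NKT2 gate, Ccr9 was at 90.1 CPM in BM only and 154 in BM + Spl (log2 ratio 0.77, 0.50 to 1.05), and Ccr10 at 36.2 and 56.9 (0.66, 0.22 to 1.12). The Mixed gate had the like for Ccr9, at 80 and 126 CPM, with 7.86% of all genes past the fold. Ccr7 in NKT2 had a log2 ratio of 0.12 (-0.10 to 0.34) and Ccr4 of -0.01 (-0.30 to 0.27), and both intervals held 0. In the NKT17 gate, Ccr8 was at 20.1 (14.5 to 27.2) CPM in BM only and 115 (90.9 to 144) in BM + Spl, Ccr7 had a log2 ratio of 1.05 and Ccr4 of -0.73, where 15.1% of all genes were past the fold. The Ccr7 ratio was 0.29 with levels from thinned cells. Ccr4 was at 39.8 (31.7 to 49.3) and 23.9 (13.7 to 38.9) CPM. Its ratio was within the fold without the cells with most UMIs (-0.42), with the mean of single-cell CPM (-0.32) and without cycling cells (-0.51). Ccr6 had a log2 ratio of 0.19 (-0.18 to 0.56) in this gate.

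In Foxp3+ cells, Ccr4 was at 74.9 (66.4 to 84.1) CPM in BM only and 33.3 (28.7 to 38.5) in BM + Spl, and Ccr6 at 219 (205 to 235) and 98.2 (90.1 to 107), the opposite direction to the NKT1 gate. These were 2 lower receptors, with Ccr9 the 1 higher at a log2 ratio of 0.68 (-0.11 to 1.51), of 9 tested, where 10.1% of all genes were past the fold. The Ccr9 ratio rested on 47 and 20 UMIs, its interval held 0, and it turned to -0.14 without the 5% of cells with the most UMIs and to -0.24 with only iNKT V beta cells. Ccr6 was also lower in CD8 cells, at 52.1 and 13.8 CPM, as the 1 receptor of 6 past the fold (12.2% of all genes). In the Other gate, Ccr6 was at 85.2 and 49 CPM and Ccr8 at 64.2 and 139, with 8 of 10 receptors within the fold and 8.58% of all genes past it. In the Zbtb16+Il17rb- gate Ccr8 was the 1 receptor of 9 past the fold, at 13.5 and 8.49 CPM (4.13% of all genes), and it stood within the fold under 4 of the alternative settings. Ccr8 was past the fold in the other direction in the NKT1, NKT17 and Other gates. The B gate (12.7 and 30 CPM), pDCs (20.7 and 32.6) and the Macrophage/DC gate (37.6 and 58.4) were also past it in that other direction. The share of all genes past the fold is not given here for these gates. The T cell gene Cd3e was higher there too, at 113 and 197 CPM in B, 95.7 and 203 in pDCs and 191 and 342 in Macrophage/DC. Whether doublets, which were not removed, or other T cell RNA add to these levels was not tested.

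Summed over all cells, Ccr7 (0.94), Ccr9 (0.93) and Ccr10 (0.87) were higher and Cxcr3 (-0.67) and Cxcr6 (-0.75) lower in BM + Spl on the log2 scale, with 15.1% of all genes past the fold. The NKT1 gate held 44.7% of cells in BM only and 13.9% in BM + Spl, and within that gate neither Cxcr3 nor Cxcr6 was past the fold. Cxcr6 was past it at -0.97 in the gate's iNKT V beta cells with Zbtb16, and at -0.60 when the gate needed at least 2 NKT1 markers. Whether the share of cells in the NKT1 gate accounts for the sums over all cells was not tested.

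Between BM only and C57BL/6, many genes differed. In the NKT1 gate 3 receptors were higher and 4 lower of 9 (43.9% of all genes past the fold), in NKT2 1 and 4 of 8 (41.4%) and in NKT17 2 and 3 of 8 (41.3%). Ccr10 and Ccr9 were lower in BM only in all 3 gates. Ccr10 was at 85.5 CPM in C57BL/6 and 8.49 in BM only in the NKT1 gate, 134 and 36.2 in NKT2, and 41.8 and 17.7 in NKT17. Ccr8 in NKT1 went from 4.8 to 100.1 CPM, a log2 ratio of 4.38 (3.94 to 4.87). Ccr6 in NKT17 was at 47.6 and 111 CPM and Ccr7 in NKT2 at 76.1 and 157.

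Cycling NKT2 cells, those with cell cycle transcripts such as Mki67 and Top2a, had lower CPM of 4 of 7 receptors in BM + Spl and of 1 of 8 in C57BL/6. They also had more UMIs per cell, with medians of 23840.5 against 13547.5 in C57BL/6 and 15612 against 9095 in BM + Spl. A lower CPM there is thus a lower share of all UMIs and need not be fewer UMIs of the receptor per cell. In C57BL/6, Cxcr3 was at 13.6 CPM in cycling and 32.6 in non-cycling NKT2 cells (log2 ratio -1.27, -1.65 to -0.90). It was the 1 receptor lower of 8, and Cxcr4 was the 1 higher. This is near the 26.6% of all genes past the fold in either direction, so the count is not read as a result about the receptors. In BM + Spl 4 of 7 were lower and 0 higher, with 12.2% of all genes lower by the fold. Ccr10 was at 19.5 and 69 CPM, Ccr8 at 5.42 and 18.5, Cxcr6 at 129 and 211 and Ccr4 at 68.3 and 107. Cxcr4 was higher in cycling cells of C57BL/6, at 7.95 against 4.22 CPM, but lower when levels came from thinned cells. BM only had under 50 cycling NKT2 cells and was not read.

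Of 16 other chemokine and chemoattractant receptors, most were too low to compare. Between the NKT1 and NKT2 gates, 4 were higher and 1 lower of 5 tested in C57BL/6, 4 of 4 were higher in BM only and 3 of 3 in BM + Spl, where 24.1%, 33.3% and 26.2% of all genes were past the fold in either direction. Gpr183, a receptor of oxysterols, was at 54.1 CPM in NKT1 and 15.7 in NKT2 of C57BL/6, and Cx3cr1, the fractalkine receptor, at 14.4 and 0.906. Of 21 genes of receptor signalling, 7 were higher and 1 lower in NKT1 in C57BL/6 and in BM only, and 6 and 2 in BM + Spl, to be read against the same 24.1%, 33.3% and 26.2% of all genes. Rgs1, which ends the signal of the G proteins that these receptors use, was at 130.4, 599.9 and 602 CPM in NKT1 of C57BL/6, BM only and BM + Spl, against 6.34, 17.7 and 23.7 in NKT2. Rgs10 was lower in NKT1 in all 3 libraries.

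Of 18 ligands of the receptors, 15 were matched and few were transcribed by these cells. Ccl1, the ligand of Ccr8, was at 0.493, 21.8 and 236 CPM over all cells of C57BL/6, BM only and BM + Spl. The NKT1 gate was at 5.24 CPM in BM only and 1545 in BM + Spl, a log2 ratio of 8.20 (7.86 to 8.58). Both Ccr8 and its ligand were thus higher in this gate of BM + Spl. Nearly all of the gate's Ccl1 in BM + Spl was in the cells without Zbtb16, at 2077 CPM against 4.09. Among those without it, cells with an iNKT V beta segment were at 1823 CPM and cells with another V beta at 2194. Ccl1 was also past the fold and higher in the B, Macrophage/DC, NKT17 and Other gates of BM + Spl, and lower in Foxp3+ cells. The B and Macrophage/DC gates of BM + Spl also had more of the T cell gene Cd3e, as given above. Which cells made the Ccl1 of these gates was not tested. In the comparison of the NKT1 gate between BM + Spl and BM only, 3 of 4 ligands tested were higher and 0 lower. Of the other receptors 0 of 4 were higher and 2 lower, and 1 of 21 signalling genes was higher and 3 were lower. Beside these, 12.3% of all genes were higher and 10.1% lower. The signalling genes were thus near that background. Rgs16 was the signalling gene that was higher, at 7.22 and 188 CPM. Ccl25, the ligand of Ccr9 that thymic epithelium makes, was at 18.4, 7.93 and 8.07 CPM over all cells.

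The genes most like each receptor were looked for among 9913 genes over 28 sums of a gate in a library, by Pearson's r of log2(CPM + 10). The sums of 1 library share its depth and processing, so r is given as a description. Cxcr6 was most like Rinl (0.946), Fam102a (0.931) and Ehd3 (0.924). Ccr8 was most like Sfr1 (0.948), Ubash3a (0.942) and Etfbkmt (0.913). These r values were among the highest of the set. Ccr6 was most like Cpd (0.929), Ccr4 like Gtf2ird1 (0.922), Cxcr3 like Gpr174 (0.886), Ccr9 like Plac8 (0.873), Ccr2 like Dhx38 (0.869), Ccr7 like Rida (0.862) and Cxcr4 like Il1rl1 (0.834). Ccr10 was most like Cntnap1 (0.953), the gene on the other strand that contains it. None of these genes was a member of the receptor set or a marker of the gates.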

How the data were processed

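The authors made a droplet library from the sorted thymic cells of each condition and deposited matrices of raw UMI counts by gene and cell, not normalized. Per the labels' processing notes the reads were aligned to mm10 with Cell Ranger, and Seurat 4.0.2 was used. The table headers name software version 3.0.2 for C57BL/6 and 7.0.0 for both BMT libraries, with 31053 and 32285 genes, of which 30406 identifiers were shared and used. Single Cell 3' and 5' kits of 10x Genomics and a V(D)J kit are named in the study's methods, but which library was made with which kit, and the use of strand, were not given in the sources used here.

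The filter on cells (more than 200 but fewer than 6000 genes, less than 10% mitochondrial UMIs) left out 179, 16 and 16 of them, and doublets were not removed. Gates were set from raw UMIs in the order B, pDC, Macrophage/DC, Treg (Foxp3), CD8 (Cd8a and Cd8b1), NKT17, NKT1, Mixed, NKT2, Zbtb16+Il17rb- and Other. The first 3 needed at least 2 of their markers: Cd79a, Cd79b, Ms4a1, Ly6d and 1 more for B, Siglech, Klk1, Cox6a2, Spib and Cd209d for pDC, and Lyz2, Csf1r, C1qa, C1qb, Clec9a, Itgax, Flt3 and Cst3 for Macrophage/DC. The further marker of the B gate and that of the NKT17 gate are not reported here. The last 6 gates are called T cells or T cell gates in the text. An iNKT V beta call needed 80% of a cell's Trbv UMIs on Trbv1, Trbv12-2, Trbv13-1, Trbv13-2, Trbv13-3 or Trbv29. Thinning to 2700 UMIs left out 15, 959 and 568 shallower cells. With 1 library a condition, values carry counting intervals and no p-value. Calculations were tested on simulated data, with numpy 2.4.6, pandas 2.3.3 and scipy 1.17.1 under Python 3.11.15.

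The receptors and the lists of other receptors, ligands and signalling genes were chosen with earlier results of these data known. Named genes were the 10 receptors, genes of the lists with at least 200 UMIs or on which a result turns, and the 3 genes most like each receptor. A further 13 settings, listed in the closing section, were tried, and 2 more were chosen after seeing the data: the NKT1 gate with iNKT V beta and Zbtb16 detected, and the removal of the 43 shared barcodes.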

Additional observations from a re-analysis of the deposited data

Results flagged for a closer look

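These receptors moved past 1.5-fold in opposite directions under the same comparison, and the differences between the gates or libraries were not tested, since each condition has 1 library. Ccr4 in BM + Spl over BM only had a log2 ratio of 1.18 in the NKT1 gate and -1.17 in the Treg gate. The NKT1 value was within 1.5-fold, at 0.46, with levels from thinned cells. Ccr6 in the same comparison was at 4.35 in the NKT1 gate and -1.92 in the CD8 gate. Ccr8 was at 2.52 in the NKT17 gate and -0.67 in the Zbtb16+Il17rb- gate, the latter within 1.5-fold under 4 alternative settings. Cxcr3 in NKT17 over NKT2 was at 1.94 in BM + Spl and -1.44 in C57BL/6. Ccr4 in BM only over C57BL/6 was at 0.90 in the Other gate and -0.86 in the NKT1 gate, a comparison in which condition and processing cannot be told apart. That NKT1 value was within 1.5-fold with gates set on thinned cells (-0.07), with levels from thinned cells (-0.14) and with at least 4 NKT1 markers (-0.48).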

How the results depend on the processing

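No paired analysis was possible because each condition has 1 library. The 13 planned settings changed the filter on cells, left out the 5% of cells with the most UMIs or the cycling cells, set gates or levels on thinned cells, scaled per UMI outside mitochondrial and ribosomal protein genes or took the mean of single-cell CPM, kept only iNKT V beta cells, changed the NKT1 markers needed, and thinned to 1500 or 4000 UMIs. Each receptor past 1.5-fold in the main setting was read again under each other setting where it could be computed. This gave 945 values that are not independent, since a receptor is counted once for each setting and comparison. Of these, 907 stayed past 1.5-fold in the same direction. All 1621 such values, past the fold or not, were also sorted. Of these, 1371 stayed within the counting interval of the main setting and 245 left it. The other 5 were past the fold in the main setting and changed sign. Changes of sign were counted only for receptors past the fold there, so those of other receptors are among the 1371 and 245. Removing the shared barcodes ended no call. In BM + Spl over BM only it moved Ccr10 in the Other gate from 0.31 to 0.70 and Ccr2 in NKT17 from -0.571 to -0.586, both past 1.5-fold.

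Counts of receptors past the fold in BM + Spl over BM only moved as follows. With levels from thinned cells they were 3 in NKT1 in place of 7 and 0 in NKT17 in place of 3. Fewer receptors then reached 50 UMIs, and some log2 ratios also fell within the fold. In NKT1 Ccr4 went from 1.18 to 0.46 and Cxcr4 from -0.68 to -0.42, and in NKT17 Ccr7 went from 1.05 to 0.29. With the mean of single-cell CPM the counts were 1 in NKT2 in place of 2 and 5 in Other in place of 2. In Zbtb16+Il17rb- the 1 became 0 without the cells with most UMIs, with gates on thinned cells and without cycling cells. With levels from thinned cells Ccr8 was within the fold there too, at -0.071, but Ccr10 was past it at 0.82, so the count stayed at 1. In CD8 the 1 became 2 with over 500 and under 5000 genes, without the cells with most UMIs and without cycling cells, and 3 with gates or levels on thinned cells. Scaled outside mitochondrial and ribosomal protein genes, 4 in place of 2 receptors were past the fold in cycling NKT2 cells of C57BL/6, and 5 in place of 3 were at 50 CPM in NKT17 of BM only. In NKT17 of C57BL/6, 4 in place of 2 reached 50 CPM under that scaling, with levels from thinned cells and without cycling cells. The cause of these moves was not tested.

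The share of T cells with both Il17rb and Cxcr3 was 0.954% at 1500 UMIs and 4.05% at 4000 in C57BL/6, and 0.129% at 1500 in BM + Spl. Among log2 ratios past the fold in the main setting, the following changed sign, and those within the fold are not listed. Cxcr4 in cycling NKT2 cells of C57BL/6 went from 0.91 to -0.73 with levels from thinned cells. Ccr10 in NKT1 over NKT2 of BM + Spl went from -0.99 to 0.046 with only iNKT V beta cells. Ccr8 in BM + Spl over BM only in NKT1 went from 0.90 to -0.63 in the iNKT V beta cells with Zbtb16. Ccr9 in the Treg gate went from 0.68 to -0.14 without the cells with most UMIs and to -0.24 with only iNKT V beta cells. Depth limits the low receptors most, since Cxcr4 and Ccr6 often stood under 50 UMIs in a gate.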
